A study of Mus musculus with 6 samples.

Results

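Protamines and transition proteins are the mostly small, basic proteins that take over from histones in the sperm head. They were followed as the 5 gene symbols Prm1, Prm2, Prm3, Tnp1 and Tnp2, chosen by name out of 25165 symbols. Each stood on 1 row in every file, and all 5 passed the filter on low values, which 12952 symbols passed. Total RNA of testis from C57BL/6 mice aged 8 weeks had been sequenced in 6 libraries, of which 3 are titled KO (mice without the long non-coding RNA Teshl, NR_038002) and 3 are titled WT (wild type). The genotype field of the labels states the reverse for all 6 libraries, so the groups are named by title. How the gene was removed and whether each library came from another animal is not stated in the labels, so p-values reflect only the spread from library to library, and that spread may be technical.

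When a round spermatid elongates, its histones are displaced first by transition proteins and then by protamines, and the nucleus condenses until transcription stops. The mRNAs of both families are made in round spermatids and are held back in ribonucleoprotein particles, so that translation follows days after transcription. In mice, the amounts of the protamines and the balance between Prm1 and Prm2 are known to matter for chromatin packing and fertility. Tnp1 also lies beside the removed gene, and the remaining members share a small cluster on another chromosome.

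Levels are given as FPKM, fragments scaled by transcript length and library depth, so that genes of different length can be set side by side. Library totals lay between 398081 and 413604 FPKM in KO-titled testes and between 393622 and 413589 FPKM in WT-titled testes. From the steps between the lowest values, depth was estimated at about 32700000 to 39600000 fragments in KO-titled testes and about 27800000 to 32400000 fragments in WT-titled testes. At that depth Prm3, the lowest of the members, stood on about 5344 fragments or more in each library, which gives a counting error of at most 1.37%. That error covers counting only. By the depth estimate, every library titled KO was deeper than every library titled WT, so depth and group cannot be told apart. The removed gene, 1700027A15Rik, was at 0.385 FPKM in KO-titled replicate 1 and listed at 0 in replicates 2 and 3, against 1028, 989 and 1081 FPKM in WT-titled testes. The level of the removed gene thus follows the titles. Testis markers were present throughout. Of 5 epididymal markers, Rnase10 was at 2.35 to 2.67 FPKM in KO-titled testes and 2.30 to 3.02 FPKM in WT-titled testes, and the other 4 were under the filter, with Lcn5 and Adam7 listed at 0 in all 6 libraries. A listed 0 may be a failed estimate, since genes such as Ppp1cc, of a testis phosphatase, and Hbb-bs, of haemoglobin, were also listed at 0 throughout.

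On the genome, Prm1 (chr16:10796332-10796823), Prm2 (chr16:10791377-10792105), Prm3 (chr16:10790508-10790914) and Tnp2 (chr16:10787935-10788655) follow one another on the minus strand of GRCm38, the assembly also called mm10. Tnp1 lies at chr1:73015074-73015899, also on the minus strand. RefSeq places the start of 1700027A15Rik 137 bp from it, on the opposite strand, at position 73016036. GENCODE M21 gives 1 exon for Prm3 and 2 exons for Tnp1 and Tnp2. It gives 2 or 3 exons for Prm1 and Prm2, depending on the transcript. The coding sequences differ in what they encode. In Prm1, 54.9% of 51 codons encode arginine and 17.6% encode cysteine. In Prm2, 35.5% of 107 codons encode arginine and 16 codons encode histidine. Tnp1 has 20.0% arginine and 18.2% lysine codons among 55 and no cysteine codon, and Tnp2 has 13.7% arginine, 10.3% histidine and 5.13% cysteine codons among 117. Prm3 stands apart, with 1.98% arginine codons and 29.7% codons for glutamate or aspartate among 101. No other annotated transcript matched a member at 90% identity over 50% of its length, and no near copy that could share their reads was found. GENCODE draws Gm46563 and Gm10343 over Prm1 on the other strand.

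The 250 bases before each start site are shown because the members were set against one another as a group, and because the window of Tnp1 holds the RefSeq start of the removed gene. They are from RefSeq on GRCm38.p6, where all 5 members were matched, and are written 5′ to 3′ on the minus strand. Capitals mark TGANNTCA, the cyclic AMP response element with its centre left free, and TATAAA or TATATA, found on either strand.
Prm1 (chr16:10796824-10797073): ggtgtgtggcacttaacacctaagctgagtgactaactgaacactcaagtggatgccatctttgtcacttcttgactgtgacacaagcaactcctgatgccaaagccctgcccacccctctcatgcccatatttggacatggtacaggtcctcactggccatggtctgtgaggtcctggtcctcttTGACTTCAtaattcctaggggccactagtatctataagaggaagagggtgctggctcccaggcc
Prm2 (chr16:10792106-10792355): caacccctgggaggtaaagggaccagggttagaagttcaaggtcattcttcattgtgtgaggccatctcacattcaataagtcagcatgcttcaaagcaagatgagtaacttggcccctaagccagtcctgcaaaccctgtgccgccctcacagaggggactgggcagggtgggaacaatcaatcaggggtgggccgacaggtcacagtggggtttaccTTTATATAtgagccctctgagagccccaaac
Prm3 (chr16:10790915-10791164): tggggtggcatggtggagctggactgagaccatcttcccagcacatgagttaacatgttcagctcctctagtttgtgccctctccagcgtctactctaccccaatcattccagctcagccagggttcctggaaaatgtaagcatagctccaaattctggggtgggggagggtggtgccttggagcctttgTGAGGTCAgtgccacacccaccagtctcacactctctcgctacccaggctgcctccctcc
Tnp1 (chr1:73015900-73016149): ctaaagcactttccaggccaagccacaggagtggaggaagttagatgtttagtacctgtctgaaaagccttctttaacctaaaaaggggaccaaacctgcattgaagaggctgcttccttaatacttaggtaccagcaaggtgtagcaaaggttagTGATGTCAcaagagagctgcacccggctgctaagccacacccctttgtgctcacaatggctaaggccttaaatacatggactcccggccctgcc
Tnp2 (chr16:10788656-10788905): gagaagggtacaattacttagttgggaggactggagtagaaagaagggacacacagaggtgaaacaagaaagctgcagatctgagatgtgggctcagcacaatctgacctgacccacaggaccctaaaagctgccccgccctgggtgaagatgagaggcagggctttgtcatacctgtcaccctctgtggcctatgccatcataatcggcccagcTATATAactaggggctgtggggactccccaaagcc
CREM, an activator of spermatid transcription in mice, binds cyclic AMP response elements. TGANNTCA was present in Prm1 as TGACTTCA (bases 64 to 57 before the start), in Tnp1 as TGATGTCA (bases 94 to 87) and in Prm3 as TGAGGTCA (bases 60 to 53). It occurs in 11.9% of 32851 promoter windows of the same length. The full palindrome TGACGTCA was in none of the 5 windows and in 1.55% of all. TATATA was in Prm2 (bases 29 to 24) and Tnp2 (bases 35 to 30), against 5.25% of all windows. TATAAA was in Prm2 alone of the members, on the other strand and overlapping TATATA, against 12.4% of all. CCAAT, also searched, was in Prm3 and in 33.8% of all windows. A match is a description of letters, not of a bound site.

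The comparison of KO-titled testes with WT-titled testes asks whether loss of Teshl goes with other levels of these mRNAs. All 5 members had a positive log2 fold change in KO-titled testes, from 0.08 for Tnp1 to 0.35 for Tnp2, and none passed the threshold over all genes. Of all tested genes 34.3% had a positive log2 fold change. By limma with Benjamini-Hochberg adjustment, 0 of 5 members were called at an adjusted p under 0.05. Of 12952 tested genes 1.15% were called, 0.788% upward and 0.363% downward. At an unadjusted p under 0.05, 4 of 5 members were higher, where 5.38% of tested genes lay upward and 8.89% downward. In 3 of 5, Prm1, Prm2 and Tnp2, every library titled KO lay above every library titled WT, which was so for 5.92% of tested genes. Of all calls 68.5% were upward, and 78.6% with upper-quartile scaling. In all, the groups were apart for 21.7% of tested genes, 15.8% in the downward direction. The median log2 fold change of the members was 0.19, against -0.04 for all tested genes.

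Transition proteins bind DNA between the removal of histones and the arrival of protamines. Tnp2 encodes the larger of them, a zinc-binding protein. Its level was 6310, 6932 and 6601 FPKM in KO-titled testes, against 4996, 4791 and 5834 FPKM in WT-titled testes. The lowest library titled KO stood above the highest WT-titled. Mean levels were 6615 ± 311 FPKM in KO-titled testes and 5207 ± 552 FPKM in WT-titled testes (SD, n = 3 each), or 1.27-fold. The log2 fold change was 0.35 (SE 0.07, 95% interval 0.18 to 0.52), with an unadjusted p = 0.00120 and an adjusted p = 0.0735 by limma.

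Tnp1 encodes the smaller transition protein and is the member next to the removed gene. It was at 5159, 5432 and 5600 FPKM in KO-titled testes, against 4994, 4718 and 5617 FPKM in WT-titled testes. The groups overlapped, since WT-titled replicate 3 was the highest of all 6 libraries. The log2 fold change was 0.08 (SE 0.06), and its 95% interval of -0.06 to 0.23 spans both a small decrease and a rise of 1.17-fold (adjusted p = 0.554 by limma). A change of the size measured for Prm2 lies inside that interval. GENCODE bounds of 1700027A15Rik span Tnp1 on the other strand. In KO-titled testes, where that gene was at 0.385, 0 and 0 FPKM, Tnp1 was at 5159 to 5600 FPKM, so its reads were not counted to the overlapping gene. Whether reads of the overlapping gene entered the Tnp1 value in WT-titled testes was not tested.

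Protamines are the final packaging proteins of sperm DNA. Prm1, which encodes protamine 1, was the most abundant mRNA of the table in each of the 6 libraries. It was at 9823, 10526 and 10305 FPKM in KO-titled testes, against 8645, 8058 and 9119 FPKM in WT-titled testes. The groups did not overlap. The means were 10218 ± 360 FPKM in KO-titled testes and 8608 ± 531 FPKM in WT-titled testes (SD, n = 3 each), 1.19-fold, with a log2 fold change of 0.25 (SE 0.05, 95% interval 0.13 to 0.37, adjusted p = 0.0682 by limma).

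Prm2, which encodes a precursor that is trimmed to protamine 2 during packing, ranked directly below Prm1 in every library. Its level was 8736, 9086 and 8690 FPKM in KO-titled testes, against 7722, 7350 and 8127 FPKM in WT-titled testes. Again the groups did not overlap, with 1.14-fold between the means. Its log2 fold change was 0.19 (SE 0.05, 95% interval 0.09 to 0.30, adjusted p = 0.106 by limma).

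Prm3, an acidic and cytoplasmic member in mice despite its name, was expressed far below the others. It was at 555, 580 and 532 FPKM in KO-titled testes, against 469, 484 and 535 FPKM in WT-titled testes. The groups overlapped by 1 library on each side. It had a log2 fold change of 0.17 (SE 0.06, 95% interval 0.03 to 0.30, adjusted p = 0.264 by limma). Its rank in the table was 61 to 70 in KO-titled testes and 71 to 83 in WT-titled testes.

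**Figure D1:**
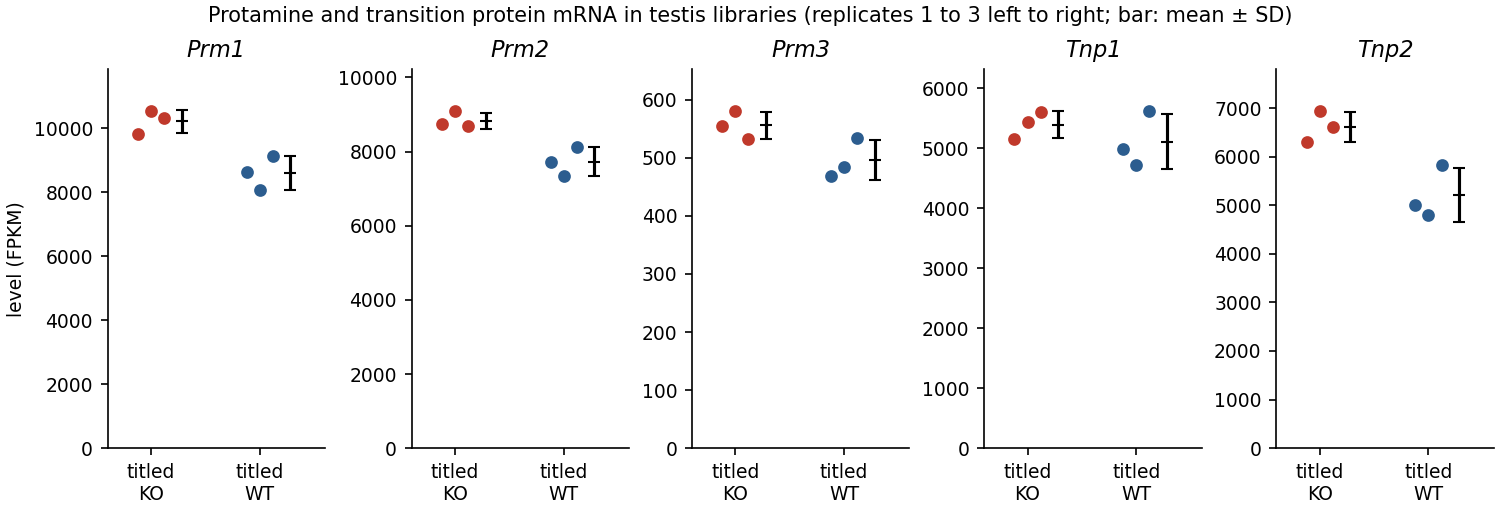
Level of each member in FPKM (vertical axis, from 0, with its own scale per panel) in the 3 libraries titled KO and the 3 titled WT, with mean ± SD beside the points. Prm1, Prm2 and Tnp2 have no overlap between the groups, while for Tnp1 WT-titled replicate 3, at 5617 FPKM, is the highest point.

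The order of the levels was the same in all 6 libraries, with Prm1 above Prm2, then Tnp2, Tnp1 and, far below, Prm3. In KO-titled testes, Tnp2 and Tnp1 had means of 6615 ± 311 and 5397 ± 222 FPKM (SD, n = 3 each). In WT-titled testes their means were closer, at 5207 ± 552 and 5110 ± 460 FPKM. Within the WT-titled libraries the ratio of Tnp2 to Tnp1 was 1.0, 1.02 and 1.04. After them came Smcp, a gene of the sperm mitochondrial capsule named here for its rank, at a mean of 2148 FPKM over the 6 libraries. Within WT-titled testes, replicate 3 was the highest library for every member. Within KO-titled testes, replicate 2 was the highest for Prm1, Prm2, Prm3 and Tnp2, and replicate 3 for Tnp1.

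The members together took a larger share of total FPKM in every library titled KO than in any titled WT. Their sum was 30583, 32557 and 31727 FPKM in KO-titled testes, against 26826, 25401 and 29231 FPKM in WT-titled testes, a 1.16-fold difference of means. As a share of total FPKM, this was 7.68%, 7.87% and 7.81% in KO-titled testes, against 6.82%, 6.36% and 7.07% in WT-titled testes. The means of the share were 7.79 ± 0.0966% in KO-titled testes and 6.75 ± 0.359% in WT-titled testes (SD, n = 3 each), 1.04 percentage points apart. No library of one group reached the other. The exact two-sided permutation p was 0.1 for both sum and share, the smallest that 3 against 3 libraries allow. The total without the members was 374311 ± 6775 FPKM in KO-titled testes and 375064 ± 8826 FPKM in WT-titled testes (SD, n = 3 each; exact permutation p = 1). The 10 highest genes outside the members held 3.81 ± 0.0331% of the total in KO-titled testes and 3.82 ± 0.0606% in WT-titled testes (SD, n = 3 each; exact permutation p = 0.9).

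By member, the share of total FPKM differed most for Prm1 and Tnp2. Prm1 held 2.52 ± 0.0427% in KO-titled testes and 2.14 ± 0.106% in WT-titled testes (SD, n = 3 each). Tnp2 held 1.63 ± 0.0456% in KO-titled testes and 1.29 ± 0.108% in WT-titled testes. Taken as a share, Prm3 no longer overlapped between the groups, with 0.131% to 0.140% in KO-titled testes and 0.119% to 0.129% in WT-titled testes. Tnp1 still did, with 1.30% to 1.38% in KO-titled testes and 1.18% to 1.36% in WT-titled testes.

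**Figure D2:**
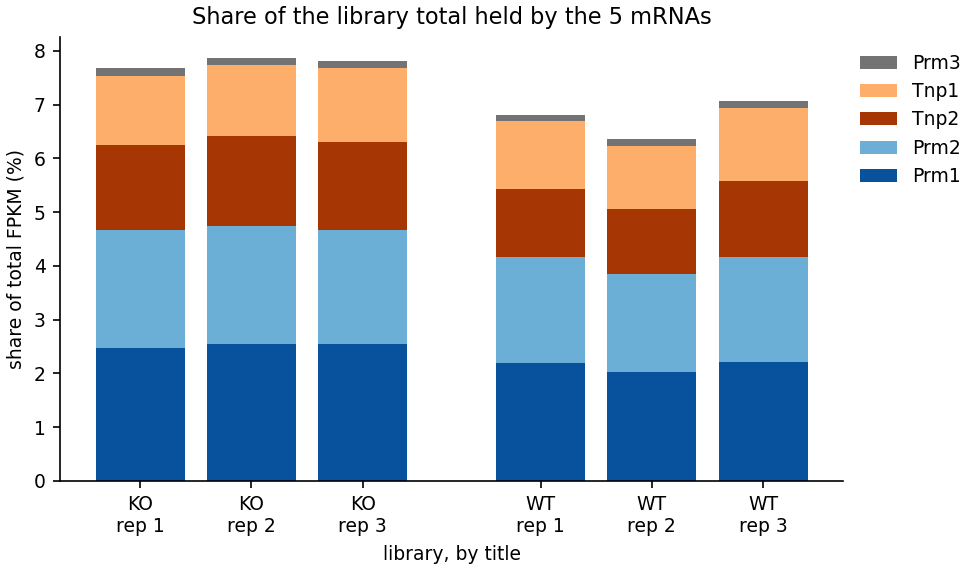
Share of total FPKM (%, stacked bars from 0) held by each member in each library. The 3 bars of KO-titled testes reach 7.68% to 7.87% and those of WT-titled testes 6.36% to 7.07%.

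Scaling of the libraries bears on whether single members pass. With equal library totals, Prm1 (log2 fold change 0.24, adjusted p = 0.0202 by limma), Prm2 (0.18, 0.0395) and Tnp2 (0.34, 0.0218) were called higher. In that fit 1.02% of tested genes were called higher. The same 3 members were called with totals taken without them, where 1.07% of tested genes were higher, and Prm1 and Tnp2 with upper-quartile scaling, where 0.935% were. Leaving out WT-titled replicate 3 also brought these 3 members past the threshold (adjusted p = 0.0115 by limma for Prm1, 0.0267 for Prm2 and 0.000987 for Tnp2). Calls were also more frequent over the whole table there, with 1.42% of tested genes higher. With median-of-ratios scaling 0 members were called (adjusted p = 0.0812 by limma for Prm1, 0.122 for Prm2 and 0.0693 for Tnp2). Leaving out any single library other than WT-titled replicate 3 also left 0 members called. Prm3 and Tnp1 were not called under any of the settings tried.

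**Figure D3:**
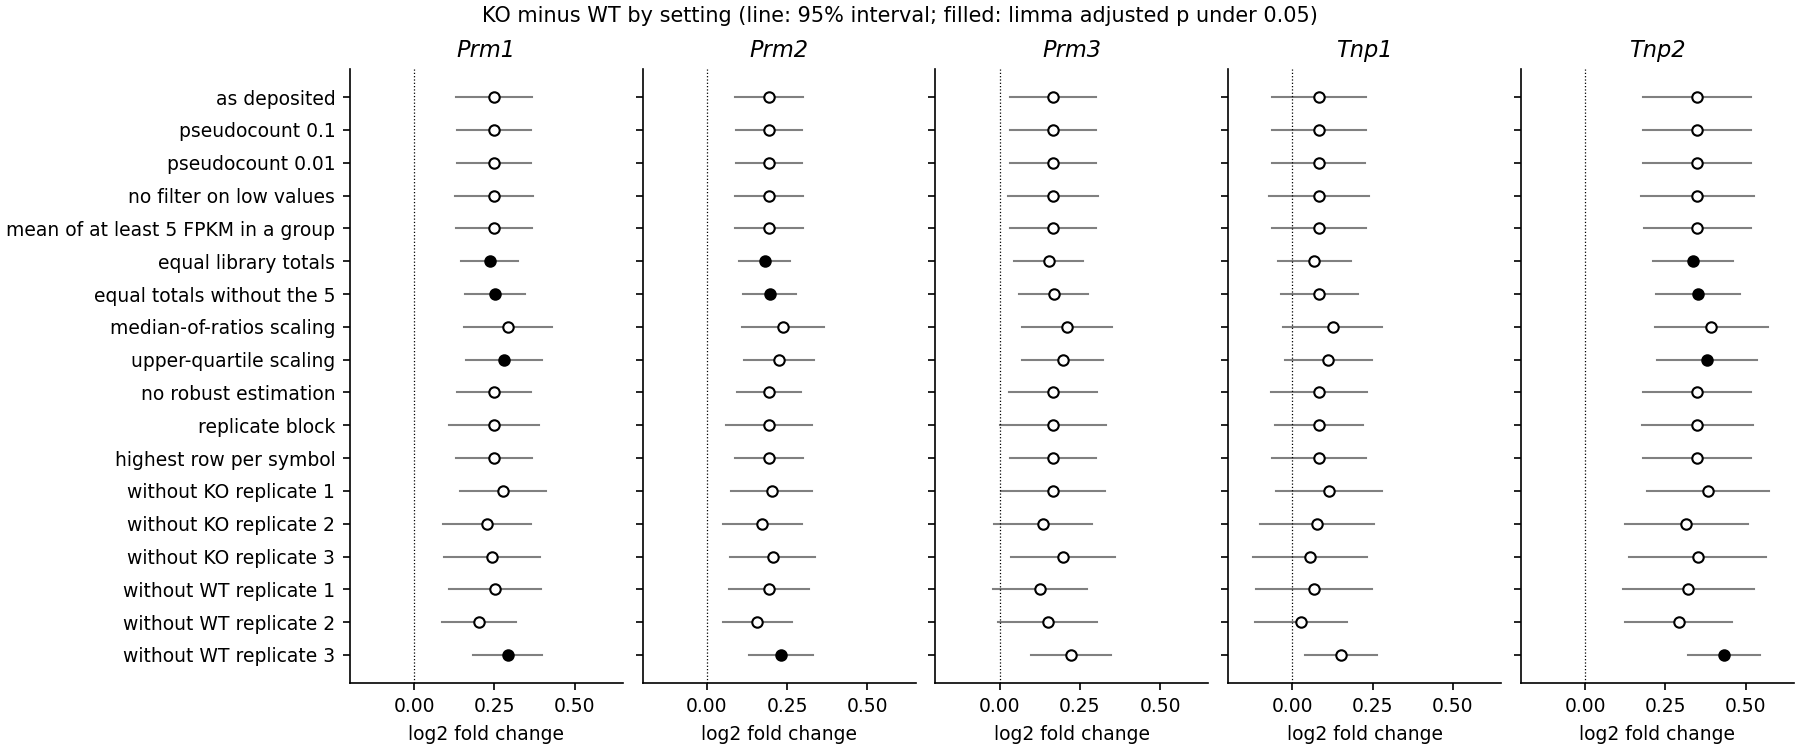
Log2 fold change of each member, KO-titled minus WT-titled (horizontal axis), with its 95% interval (line) under each setting (rows); filled points have a limma adjusted p under 0.05. Every point is above 0, and the filled ones are under equal totals, upper-quartile scaling or without WT replicate 3.

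Ratios within a library do not depend on its scaling, and 10 pairs of members plus 1 ratio of sums were compared. Of the 10 pairs, 6 had no overlap between the groups. For each of the 6 the exact two-sided permutation p was 0.1, the smallest possible here, and 0.183 after adjustment over the 11 ratios. This permutation test cannot give a p under 0.05 here. The pairs are not independent, since Prm1/Tnp2, Prm2/Tnp2, Prm3/Tnp2 and Tnp2/Tnp1, all without overlap, share Tnp2. How often pairs of other genes are apart in this way was not computed.

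The widest difference was between the transition proteins. Tnp2 stood to Tnp1 as 1.22, 1.28 and 1.18 in KO-titled testes, against 1.0, 1.02 and 1.04 in WT-titled testes. Per length the transition protein mRNAs were near equal in WT-titled testes, and Tnp2 was ahead in every library titled KO. The mean log2 ratio was higher by 0.27 in KO-titled testes, and between 0.24 and 0.30 with any single library left out. Whether reads of the overlapping 1700027A15Rik entered Tnp1 in WT-titled testes, and with it the ratios to Tnp1, was not tested.

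Prm1 to Prm2, the protamine ratio, was 1.12, 1.16 and 1.19 in KO-titled testes, against 1.12, 1.10 and 1.12 in WT-titled testes. The means were 1.16 ± 0.0307 in KO-titled testes and 1.11 ± 0.0142 in WT-titled testes (SD, n = 3 each). The groups did not overlap, but the lowest library titled KO, at 1.124, was close to the highest WT-titled, at 1.122. These are ratios of mRNA, not of protein.

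Between the families, Prm1 to Tnp1 was 1.89 ± 0.0495 in KO-titled testes and 1.69 ± 0.0566 in WT-titled testes (SD, n = 3 each). Prm1 to Tnp2 was lower in KO-titled testes, at 1.55 ± 0.0235, than in WT-titled testes, at 1.66 ± 0.0860, with the nearest libraries at 1.561 and 1.563. Prm2 to Tnp2 was 1.34 ± 0.0410 in KO-titled testes and 1.49 ± 0.0850 in WT-titled testes, and Prm3 to Tnp2 was 0.0841 ± 0.00369 in KO-titled testes and 0.0955 ± 0.00491 in WT-titled testes. Among the members, Tnp2 had the highest fold change and Tnp1 the lowest. Prm1 and Prm2 together stood to Tnp1 and Tnp2 together as 1.59 ± 0.0306 in KO-titled testes and 1.59 ± 0.0717 in WT-titled testes (SD, n = 3 each; exact permutation p = 1). The remaining pairs, Prm1 to Prm3, Prm2 to Prm3, Prm2 to Tnp1 and Prm3 to Tnp1, overlapped between the groups (exact permutation p = 0.2 to 0.6).

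**Figure D4:**
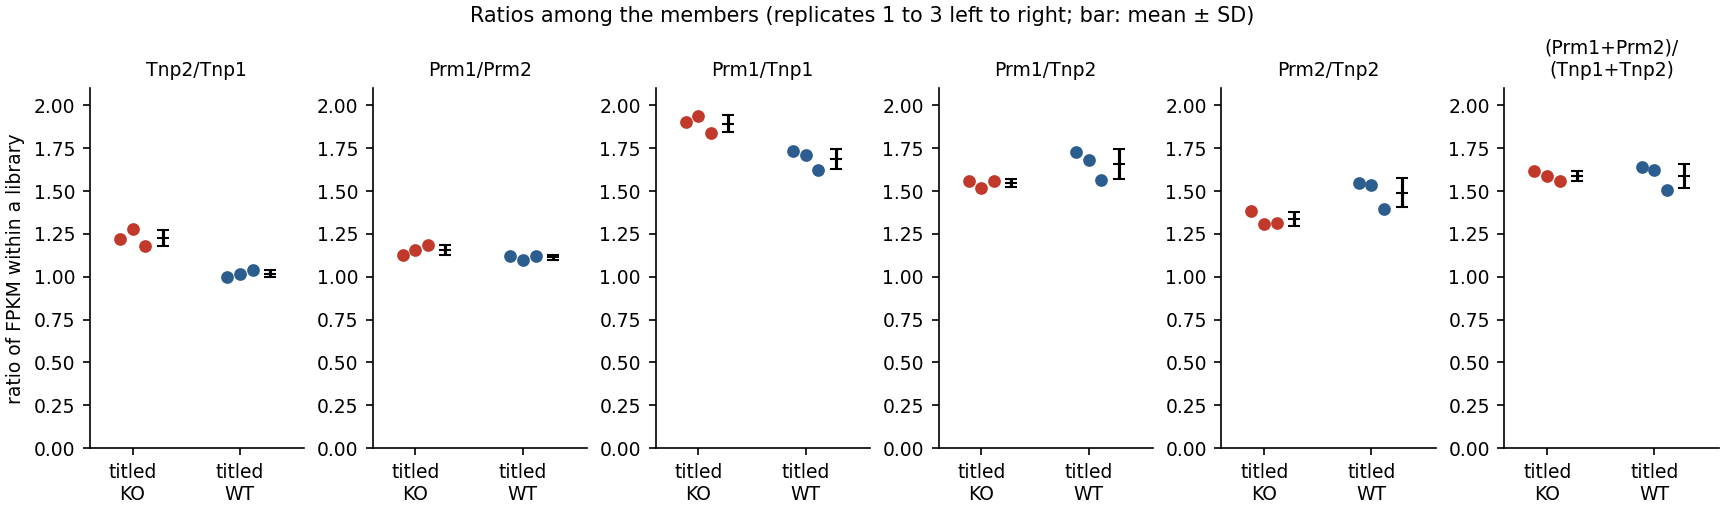
Ratios of FPKM within each library (vertical axis, from 0) for 5 pairs of members and for the ratio of sums, by library and as mean ± SD. Tnp2/Tnp1 lies at 1.18 to 1.28 in KO-titled testes and 1.0 to 1.04 in WT-titled testes, while the ratio of sums overlaps.

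Neighbouring genes were examined because 4 members share a cluster and Tnp1 adjoins the removed gene. Around the cluster, the tested genes within 200 kb were Socs1, Clec16a and Litaf. Socs1, which encodes an inhibitor of cytokine signalling, lies 2399 bp from Tnp2 and was at 2.78 ± 0.297 FPKM in KO-titled testes and 2.57 ± 0.0465 FPKM in WT-titled testes (SD, n = 3 each; log2 fold change 0.08, adjusted p = 0.615 by limma). Clec16a and Litaf had log2 fold changes of 0.01 and -0.09 (adjusted p = 0.938 and 0.603 by limma). Near Tnp1, besides the removed gene, only Igfbp2 was tested, 162600 bp away, with a log2 fold change of -0.42 (adjusted p = 0.234 by limma). It passed without KO-titled replicate 3 (log2 fold change -0.58, adjusted p = 0.0426 by limma).

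Genes that act on the members, or are made beside them, were taken as lists. Of 25 chromatin factors and histone variants of the histone-to-protamine exchange, limma called 0, and 2 had an unadjusted p under 0.05, both lower. Of all tested genes 8.89% were lower at that p. The median log2 fold change of the list was -0.03. The 2 were Tssk6, a spermatid kinase gene at 241 ± 7.84 FPKM in KO-titled testes and 264 ± 10.9 FPKM in WT-titled testes, and Parp1, which encodes a poly(ADP-ribose) polymerase, at 21.4 ± 1.94 and 24.9 ± 2.62 FPKM in the same order (SD, n = 3 each). Of 11 transcription regulators, CREM and its partners among them, limma called 0, and 1 was lower at an unadjusted p under 0.05. The share of tested genes lower at that p was again 8.89%. The median of this list was -0.02, which turned to 0.03 without KO-titled replicate 1, 0.01 without WT-titled replicate 2 and 0.05 without WT-titled replicate 3. The 1 gene was Rfx2, a factor of spermatid genes, at 98.2 ± 0.412 FPKM in KO-titled testes and 107 ± 3.08 FPKM in WT-titled testes (log2 fold change -0.12, adjusted p = 0.296 by limma).

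Proteins that bind, store or translate spermatid mRNAs had 1 of 16 genes called higher and 0 lower. Over all tested genes 0.788% were called higher and 0.363% lower. Ybx1, which encodes a Y-box protein that binds mRNA, was at 374, 435 and 430 FPKM in KO-titled testes, against 211, 206 and 230 FPKM in WT-titled testes. Every library titled KO was far above the libraries titled WT. The log2 fold change was 0.93 (SE 0.07, adjusted p = 0.000150 by limma), and 0.89 to 1.0 without single libraries. There are 3 other annotated genes that match the Ybx1 transcript at 90% identity or more over 50% of it, Ybx1-ps2 among them, so which copy gave the reads is uncertain. Paip2, whose product restrains the poly(A)-binding protein, was at 94.7 ± 8.93 FPKM in KO-titled testes and 83.5 ± 5.01 FPKM in WT-titled testes (SD, n = 3 each; adjusted p = 0.325 by limma). The list had a median of -0.06 (-0.06 to -0.03 with 1 library left out). Of the genes for handling of protamine proteins, 4 of 5 were tested, and limma called 0, with 0 also at an unadjusted p under 0.05 and a median of -0.0062 (-0.03 to 0.01 with 1 library left out). Gpx4, which encodes a peroxidase that cross-links sperm nuclear thiols in its nuclear form, was at 1131 ± 10.3 FPKM in KO-titled testes and 1189 ± 11.2 FPKM in WT-titled testes.

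Other mRNAs of elongating spermatids were measured as the nearest comparison by stage. Of 15, limma called 0, while 12 had a positive fold change and 3 were higher at an unadjusted p under 0.05. Over all tested genes, 34.3% had a positive fold change and 5.38% were higher at an unadjusted p under 0.05. In 4 of 15 every library titled KO lay above every library titled WT, and in 0 the reverse held, where 5.92% and 15.8% of tested genes did. The 3 were Hmgb4, Akap4 and Spem1. Hmgb4, of a spermatid high-mobility-group protein, was at 503, 583 and 552 FPKM in KO-titled testes, against 449, 395 and 500 FPKM in WT-titled testes. Akap4, of the fibrous sheath of the tail, was at 549, 549 and 536 FPKM in KO-titled testes, against 511, 487 and 500 FPKM in WT-titled testes. Spem1, needed for removal of cytoplasm, had a log2 fold change of 0.14 (adjusted p = 0.279 by limma). The median of the list was 0.04 (0.03 to 0.06 with 1 library left out), and the means of its sum were 1.03-fold apart, with overlapping libraries at 11593 to 12309 FPKM in KO-titled testes and 11106 to 11770 FPKM in WT-titled testes. The sum of the 5 members differed 1.16-fold, and the difference between these folds was not tested.

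Markers of cell types are given beside the members, and the part of cell makeup in their values was not tested. In bulk tissue, fewer cells of a type and less RNA per cell cannot be told apart. Of all tested genes 34.3% had a positive fold change. Round spermatid markers, 6 of 7 positive, had a median of 0.10 on the log2 scale (0.0032 without WT-titled replicate 2 and 0.20 without WT-titled replicate 3), with sums of 625 to 770 FPKM in KO-titled testes and 600 to 705 FPKM in WT-titled testes. Izumo1, of the sperm-egg fusion machinery, had the smallest p among them (log2 fold change 0.30, adjusted p = 0.144 by limma). Spermatocyte markers had a median of -0.05 over 7 genes, and -0.08 to -0.02 with 1 library left out (280 to 296 FPKM in KO-titled testes and 287 to 309 FPKM in WT-titled testes). Spermatogonia markers had a median of -0.11 over 5 tested genes of 7, and -0.16 to -0.06 with 1 library left out (17.4 to 19.4 and 19.1 to 20.4 FPKM in the same order).

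Leydig cell markers had a median of -0.14 (-0.25 without WT-titled replicate 1 and -0.08 without WT-titled replicate 2). Of these 7 genes 0 were positive, against 34.3% of tested genes. Their sums were 1529 to 1761 FPKM in KO-titled testes and 1701 to 1764 FPKM in WT-titled testes. Sertoli cell markers had a median of -0.07 over 5 tested genes of 7, and -0.11 to -0.02 with 1 library left out (65.3 to 69.2 and 65.9 to 72.9 FPKM in the same order). Peritubular markers had a median of -0.14 over 4 genes, at -0.0093 without WT-titled replicate 2 and -0.23 without WT-titled replicate 1. Macrophage markers had -0.04 over 5, which turned to 0.04 without WT-titled replicate 2 and reached -0.14 without WT-titled replicate 3. Red blood cell markers had -0.11 over 4 tested of 5, which turned to 0.01 without KO-titled replicate 3 and reached -0.33 without KO-titled replicate 1. No gene of these marker lists was called by limma. In the round spermatid list 1 gene was higher at an unadjusted p under 0.05, and in the spermatocyte, spermatogonia, Leydig and peritubular lists 1 gene each was lower. Over all tested genes 5.38% were higher and 8.89% lower at that p.

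**Figure D5:**
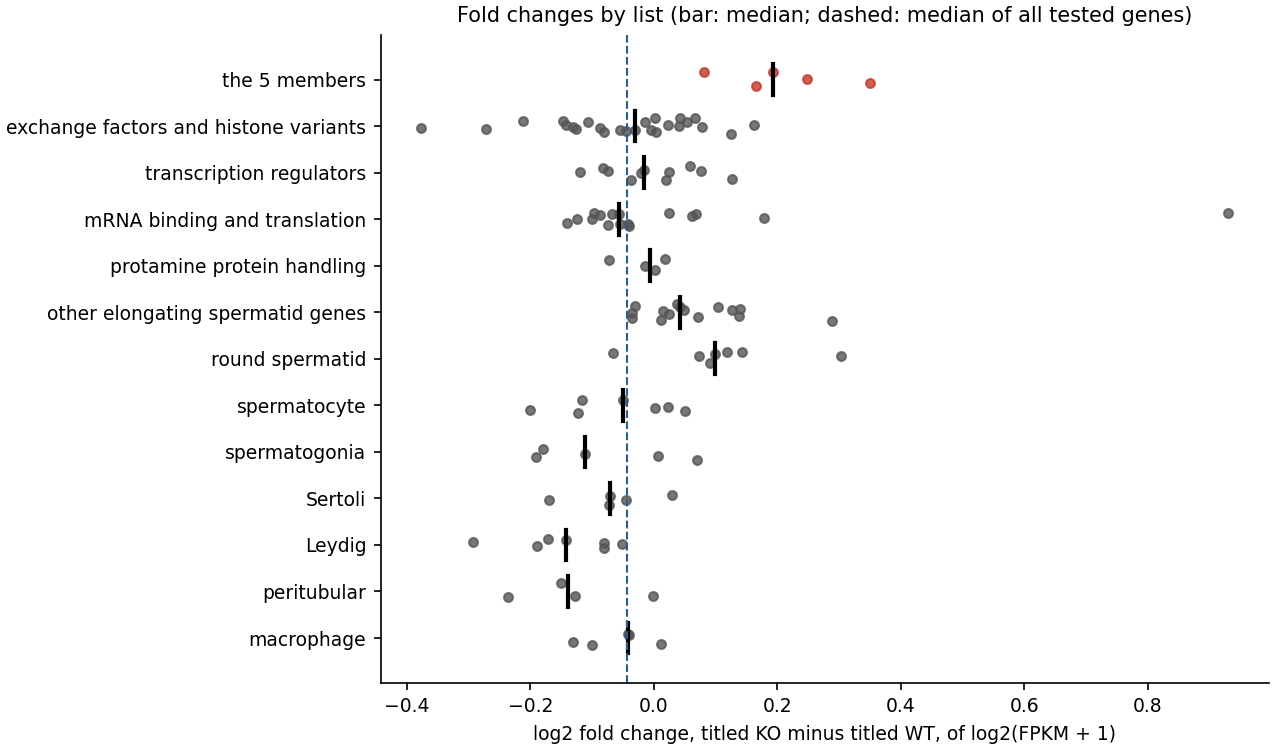
Log2 fold change of single genes, KO-titled minus WT-titled (horizontal axis), for the members and for 12 gene lists (rows), with each list's median as a bar and the median of all tested genes as a dashed line at -0.04. The members lie between 0.08 and 0.35, and the single point near 0.93 is Ybx1.

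The genes closest to each member in their pattern over the 6 libraries were found among 782 others of at least 100 FPKM. The measure was the root-mean-square difference of log2(FPKM + 1) values, each gene centred on its own mean. For Prm1 they were Nudt16l2 (0.0183) and 2810408A11Rik (0.0210), and for Prm2 Cdiptos (0.0179) and Csnka2ip (0.0216). For Tnp2 they were Ccdc70 (0.0284) and LOC102631993 (0.0378), for Tnp1 Naa38 (0.0170) and Spata33 (0.0316), and for Prm3 Cox7a2 (0.0346) and Cdrt4 (0.0353). Among the members, Prm1 and Prm2 were the closest pair (0.0370) and Tnp1 and Tnp2 the farthest (0.139). Prm2 was number 6 in closeness to Prm1, and Prm1 was number 14 in closeness to Prm2. Tnp1 was number 131 in closeness to Tnp2, and Tnp2 was number 638 in closeness to Tnp1. These likenesses are over 6 libraries taken with their differing totals as deposited, and they describe these libraries alone.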

How the data were processed

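RNA of 6 testis libraries was prepared with a directional kit, per the labels, and aligned with HISAT2 to mm10, per the submitters' processing notes. The sources used here do not name the quantifier, the annotation or its strand setting. Deposited levels are FPKM by the authors, and depth was estimated from the spacing of their lowest values.

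Rows were summed per symbol. All genes averaging 1 FPKM or more in either group were fitted as log2(FPKM + 1) by limma (3.58.1, R 4.3.3; trended and robust, two-sided), with Benjamini-Hochberg adjustment over all of them and a threshold of 0.05. Fold changes on that scale understate those of low genes. Sums, shares and ratios were compared by exact two-sided permutation. The fit was tested on simulated data. Near copies were sought with BLAST 2.17.0, and positions came from RefSeq (GRCm38.p6) and GENCODE M21.

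Named genes were the members, the removed gene, tested genes within 200 kb, the 2 closest in pattern to each member, and from each list some of the up to 4 with the smallest p. Smcp is named for its rank, and Ppp1cc, Hbb-bs, Lcn5 and Adam7 for being listed at 0, all chosen after their values were seen. Members and lists were chosen with earlier results of these data known. Alternatives were pseudocounts of 0.1 and 0.01, other filters, other scalings, a fit without robust estimation, a replicate block, the highest row per symbol and each library left out.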

Additional observations from a re-analysis of the deposited data

How the results depend on the processing

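All 5 members kept a positive log2 fold change under every setting tried. Calls were gained with equal library totals (Prm1 0.24, Prm2 0.18 and Tnp2 0.34), with totals taken without the members (0.25, 0.20 and 0.35 for the same genes) and with upper-quartile scaling (Prm1 0.28 and Tnp2 0.38). In these fits 1.02%, 1.07% and 0.935% of all tested genes were called higher, in the same order. With median-of-ratios scaling 0 members were called. Without single libraries, the log2 fold change was 0.20 to 0.29 for Prm1, 0.16 to 0.23 for Prm2, 0.13 to 0.22 for Prm3, 0.03 to 0.15 for Tnp1 and 0.29 to 0.43 for Tnp2, and the cause of the gains was not tested. The number of genes called over the whole table was 149, and 88 without a filter, which tests more genes, and 73 to 233 without single libraries, at 73 without KO-titled replicate 2, 77 without KO-titled replicate 3, 81 without WT-titled replicate 1 and 233 without WT-titled replicate 3. The share of calls that were higher was 68.5% as deposited, and 78.6% with upper-quartile scaling. Scaling moved the median of all genes by less than 0.1 on the log2 scale. With median-of-ratios scaling, 3 list medians turned positive: exchange factors (0.01), transcription regulators (0.02) and protamine handling (0.03). The medians of mRNA storage, elongating spermatid and spermatogonia genes were then -0.01, 0.09 and -0.07.

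The ratio of sums, (Prm1+Prm2)/(Tnp1+Tnp2), had a log2 difference of -0.00034 that turned to between -0.038 and 0.023 without single libraries, at 0.013 (KO-titled replicate 3 left out), 0.023 (WT-titled replicate 1) and 0.015 (WT-titled replicate 2). No other ratio changed direction, and the sum and the share kept theirs, at 3594 to 5509 FPKM and 0.848 to 1.20 percentage points. Clec16a ranged over -0.024 to 0.056 with single libraries left out, and was at -0.020 when KO-titled replicate 3 was. The removed gene was at -14.89 with a pseudocount of 0.01 (adjusted p = 0.0644 by limma), and Hmgb4 passed without WT-titled replicate 3 (0.37, adjusted p = 0.0420 by limma).

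Whether same-numbered libraries share more than a number is not known here. Their deviations from the group means correlated at 0.065, -0.129 and 0.061. Among KO-titled libraries only replicate 3 correlated best with its own number, and among WT-titled libraries only replicate 1. These correlations cannot decide the question, since the deviations of 3 libraries from their own mean are not independent. With the replicate number as a block, 50 genes were called and 0 of the members by limma, with adjusted p of 0.162 for Tnp2 to 0.588 for Tnp1; it changed no call of a member.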
